A study of Mus musculus with 5 samples.

Results

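Rag1, Rag2, Ptcra, Dntt, Cd24a, Cd1d1, Arpp21, Plxnd1 and Bcl6 mark steps that thymocytes pass before they become mature CD8 single-positive (SP) T cells. The 9 genes were taken by symbol, and all 9 had a row among the 35976 genes of each count file. RNA was sequenced from mature CD8 SP thymocytes that had been purified by flow cytometry. Wild-type mice (Runx3 +/+) gave 2 libraries, and mice with 1 wild-type Runx3 allele and 1 allele named WRPW (Runx3 +/WRPW) gave 3; no agent or treatment is labelled for either genotype. Strain, age, sex, the sort gate and the making of the WRPW allele were not given in the sources used here. Whether libraries of 1 genotype came from separate animals is likewise unstated, so p-values refer to the spread among these libraries alone, some or all of which may be technical.

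As background, developing T cells cut and join their receptor gene segments with the RAG recombinase while they are CD4- CD8- (double-negative) and again while they are CD4+ CD8+ (double-positive). Terminal transferase, the product of Dntt, adds bases at the joints without a template, and the pre-T alpha chain encoded by Ptcra pairs with the first rearranged chain to pass the beta checkpoint. A selected thymocyte shuts recombination down, loses the surface glycoprotein CD24 and leaves the thymus as a naive T cell. Runx3 is the factor that silences Cd4 in the CD8 lineage. Runx proteins carry a C-terminal VWRPY motif through which they recruit Groucho/TLE corepressors, and WRPW is the form of that motif in Hes repressors.

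Total counts ran from 15715242 to 43758550 reads per library, and 3 counts correspond to 0.0686 to 0.191 CPM (counts scaled to the library total). Levels below are CPM scaled by TMM factors unless a raw count is named. The sorted cell type was checked by Cd8a, at 2617 and 2202 CPM in Runx3 +/+ and at 2501, 2268 and 2635 CPM in Runx3 +/WRPW, against Cd4 at 0.467 and 5.36 CPM and at 0.160, 0.374 and 0.046 CPM. The 7 CD8 SP markers with a row summed to 6354 and 6426 CPM in Runx3 +/+ and to 5445 to 6157 CPM in Runx3 +/WRPW. Among them Cd3d was called lower, from a mean of 484 to 393 CPM (edgeR adjusted p = 0.039). Cd8a, Cd8b1, Cd3e, Cd3g, Cd5 and Runx3 did not pass. The count per gene does not separate the Runx3 alleles, so the genotype labels were not checked. Summed markers of other cells were low for erythroid (at most 0.249 CPM) and myeloid cells (0.919 to 1.35 CPM in Runx3 +/+, 1.06 to 5.60 CPM in Runx3 +/WRPW). Natural killer cell markers summed to 200.1 to 219.9 CPM in Runx3 +/+ and to 218.2 to 336.6 CPM in Runx3 +/WRPW. Most of that sum was Nkg7, with means of 198 and 159 CPM, and Eomes, called higher, with means of 11.1 and 105 CPM. Ncr1, Klrb1c and Gzma were at no more than 1.32 CPM in any library. Dendritic cell markers summed to 585.1 and 637 CPM in Runx3 +/+ and to 391.5 to 455.3 CPM in Runx3 +/WRPW, mostly from Ccr7, which mature thymocytes also express and which was called lower. Endothelial and fibroblast markers summed to 145.2 and 185.5 CPM and to 78.29 to 101.1 CPM, mostly from Pecam1, likewise called lower. Thymic epithelial markers were at 3.04 to 5.12 CPM in 4 libraries and at 13.8 CPM in Runx3 +/WRPW library 2. Gamma delta T cell markers (2 with a row) were at 2.75 and 3.64 CPM and at 0.594 to 2.62 CPM. The part of these cells in the results was not tested. Runx3 +/WRPW library 2 stood apart from the other libraries. It had a count at 10074 of the 18194 genes that held at most 3 counts in the other 4 libraries together, whereas the corresponding number was 429 to 892 genes in each of the others. These counts made up 0.815% of library 2 and 0.00317% to 0.00532% of the others. The share of such genes with a count in library 2 was larger for longer genes, at 43.8% of those spanning under 10 kb and 89.2% of those spanning 100 to 300 kb. Results that rest on this library are given with and without it.

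**Figure D1:**
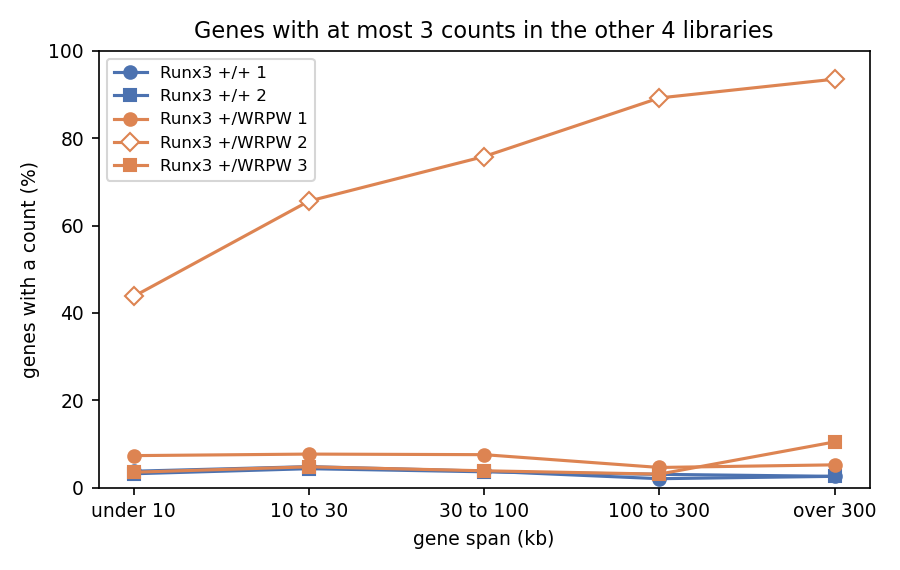
Share of otherwise near-silent genes with at least 1 count (y axis, percent) by the length of the gene on the genome (x axis, kb), for each of the 5 libraries; each line takes the genes with at most 3 counts in the other 4 libraries. Runx3 +/WRPW library 2 (open diamonds) runs from 43.8% to 93.5%, and the other 4 libraries lie between 2.09% and 10.5%.

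The promoters of Dntt, Rag1 and Ptcra are shown because these genes, all of them parts of receptor rearrangement or its checkpoint, had different outcomes: Dntt was transcribed and lower in Runx3 +/WRPW, and Rag1 and Ptcra were close to silent in both genotypes. Each is the 250 bases before the start on the gene's own strand (RefSeq, GRCm38.p6), at chr19:41029025-41029274 (plus strand) for Dntt, chr2:101649533-101649782 (minus strand) for Rag1 and chr17:46763713-46763962 (minus strand) for Ptcra. Capitals mark matches, on either strand, to the Runx core motif in the forms TGTGGT or TGCGGT and to the E-boxes CAGCTG or CAGGTG, which E proteins bind.
Dntt: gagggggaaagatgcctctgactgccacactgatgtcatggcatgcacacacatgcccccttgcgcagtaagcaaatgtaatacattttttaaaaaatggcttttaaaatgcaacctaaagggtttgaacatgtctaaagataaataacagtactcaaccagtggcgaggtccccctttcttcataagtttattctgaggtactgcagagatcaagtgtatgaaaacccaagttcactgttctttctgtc
Rag1: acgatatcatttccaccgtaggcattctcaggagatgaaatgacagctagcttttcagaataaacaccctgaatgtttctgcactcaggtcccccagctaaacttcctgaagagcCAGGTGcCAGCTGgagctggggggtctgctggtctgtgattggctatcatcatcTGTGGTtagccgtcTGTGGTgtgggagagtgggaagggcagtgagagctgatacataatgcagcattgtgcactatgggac
Ptcra: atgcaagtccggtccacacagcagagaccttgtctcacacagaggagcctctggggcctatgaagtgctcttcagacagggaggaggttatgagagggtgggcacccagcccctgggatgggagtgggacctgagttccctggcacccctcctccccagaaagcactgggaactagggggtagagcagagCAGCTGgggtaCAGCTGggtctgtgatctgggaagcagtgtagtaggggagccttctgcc
The Dntt window held no match to any of the 4 motifs. The Rag1 window held TGTGGT with its first base 81 and 67 bases before the start, CAGCTG at 128 and CAGGTG at 135, next to each other without overlap. Bases just after the start were found in a GENCODE transcript of the gene for Dntt and Ptcra but not for Rag1. The Rag1 distances therefore hold for the RefSeq start only. The Ptcra window held CAGCTG at 60 and 49 bases before the start and no Runx core. Of the 9 genes, 7 had a promoter entry (all but Cd24a and Cd1d1), with 16 windows because Arpp21 had 9, some overlapping, and Bcl6 had 2. Of the 16 windows, 4 held TGTGGT, 0 TGCGGT, 5 CAGCTG and 5 CAGGTG, in each case mostly windows of Arpp21. Among all 32851 windows of that length, 14% held TGTGGT, 5.1% TGCGGT, 13% CAGCTG and 17.2% CAGGTG. The windows of Rag2, Plxnd1 and Bcl6 held none of the 4. A match is a string of letters in this window and not a bound site.

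The comparison asked which of these stage genes differ in mature CD8 SP cells when 1 Runx3 allele is WRPW. Dntt was 3.57-fold lower in Runx3 +/WRPW, and it alone passed the test. Cd24a, the gene of the glycoprotein that maturing thymocytes lose, was 1.48-fold lower and just short of the threshold. Arpp21 did not pass with all libraries and was 3.72-fold lower, past the threshold, when Runx3 +/WRPW library 2 was left out. Cd1d1 (1.12-fold lower) and Bcl6 (1.05-fold lower) did not pass, Plxnd1 varied within genotypes, and Rag1, Rag2 and Ptcra were near silence. Of the 9 genes, 7 passed the count filter and were tested, and 2, Rag2 and Ptcra, were below it. Of the 7, 1 was lower, 0 were higher and 6 did not pass in edgeR's quasi-likelihood test with Benjamini-Hochberg adjustment over all 13666 genes tested. At an unadjusted p under 0.05, 2 were lower and 0 higher, and DESeq2 and limma-voom each called 2 lower and 0 higher. Over all genes tested, 13.6% were called, 7.33% lower and 6.24% higher, so 1 of 7 is close to the background. The median log2 difference was -0.17 over the 7 and 0.02 over all genes tested.

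**Figure D2:**
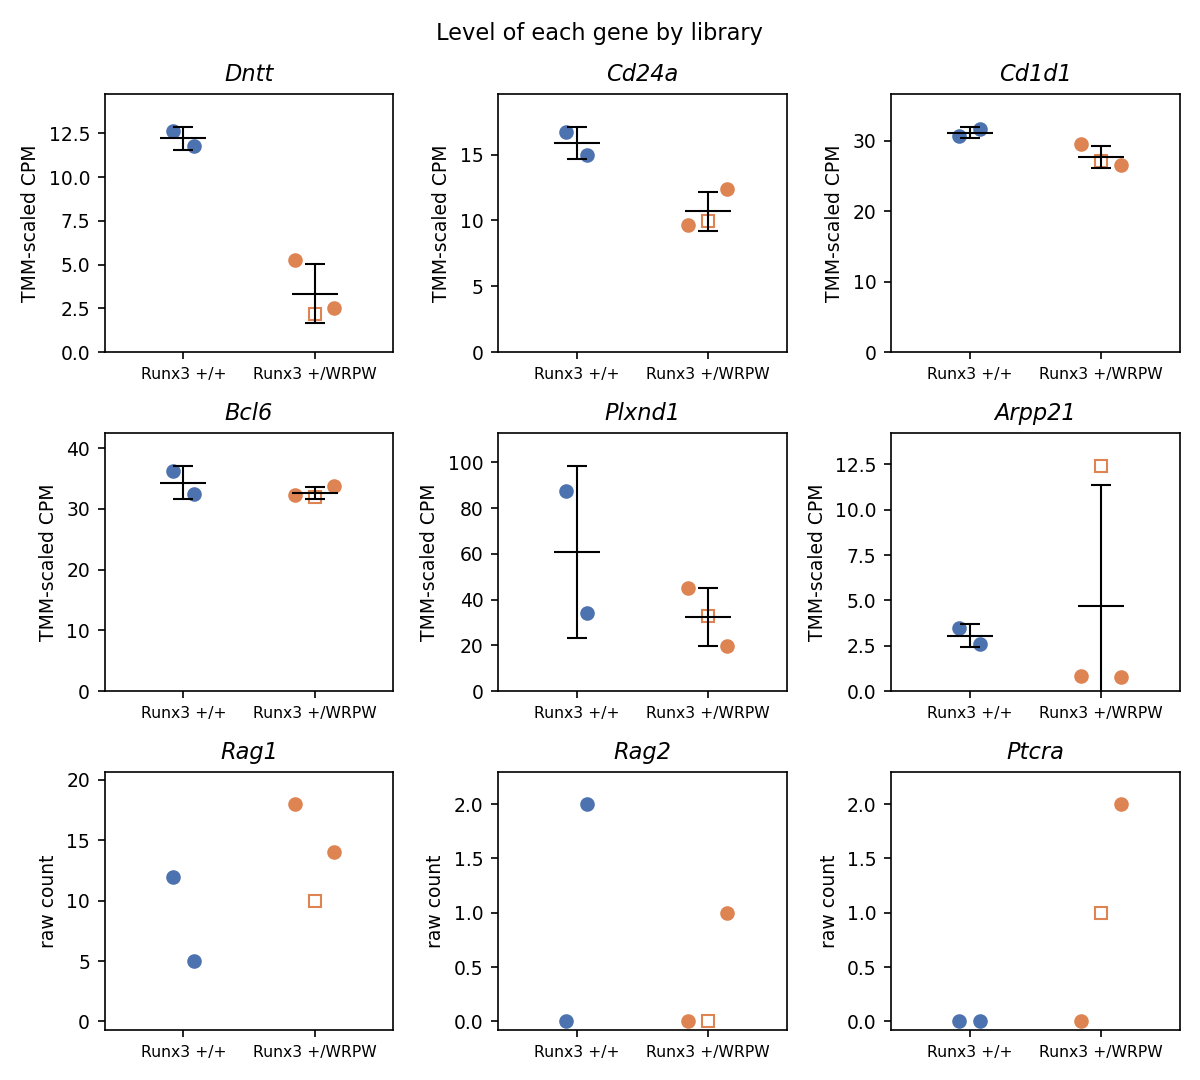
Level of each of the 9 genes in each library, as TMM-scaled CPM with mean and SD per genotype for 6 genes and as raw counts without error bars for Rag1, Rag2 and Ptcra; blue points are Runx3 +/+ (n = 2), orange points Runx3 +/WRPW (n = 3), and the open square is Runx3 +/WRPW library 2. Dntt lies at 11.8 and 12.7 CPM in Runx3 +/+ and at no more than 5.26 CPM in Runx3 +/WRPW, and the open square of Arpp21 lies at 12.4 CPM, above the 4 other libraries.

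Transcripts of the recombinase were close to absent. Rag1 (chromosome 2, 101638252 to 101649532, minus strand, GRCm38.p6), which encodes the subunit that cuts DNA, had 12 and 5 counts in the Runx3 +/+ libraries and 18, 10 and 14 counts in the Runx3 +/WRPW libraries. The genotypes overlapped, and no library was above 0.644 CPM. Summed over libraries, the ratio of Runx3 +/WRPW to Runx3 +/+ was 1.43, with an exact conditional 95% interval of 0.798 to 2.68 that covers counting error only. The fitted log2 difference was 0.55 ± 0.67 (SE; edgeR adjusted p = 0.639). Leaving out Runx3 +/+ library 2 turned it to -0.0149.

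Rag2 (chromosome 2, 101624712 to 101632528, plus strand), the partner that stabilises the recombinase and ties it to chromatin, had 0 and 2 counts in Runx3 +/+ and 0, 0 and 1 in Runx3 +/WRPW. Both genotypes were at or under 3 counts over the group, which is 0.0636 CPM for Runx3 +/+ and 0.0369 CPM for Runx3 +/WRPW, so a difference was not detectable at this depth. The 3′ ends of Rag1 and Rag2 face each other across 5723 bases. Exons of B230118H07Rik, a protein-coding gene on the minus strand, overlap 80 bases of Rag1 exons and 208 bases of Rag2 exons in GENCODE. That gene had 83 and 83 counts in Runx3 +/+ and 220, 46 and 113 in Runx3 +/WRPW, so the few reads at Rag1 and Rag2 are uncertain. It was chosen for this overlap after the counts had been seen.

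Ptcra (chromosome 17, 46755663 to 46763712), the pre-T alpha chain of the beta checkpoint, had 0 counts in both Runx3 +/+ libraries and 0, 1 and 2 in Runx3 +/WRPW. A count of 0 in the Runx3 +/+ group allows up to 0.0636 CPM. Runx3 +/WRPW was at that same limit of 3 counts, and no fold is given.

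Dntt (chromosome 19, 41029275 to 41059525), the terminal transferase, was well above the count filter in Runx3 +/+. It had 271 and 294 counts in Runx3 +/+ and 230, 35 and 55 in Runx3 +/WRPW, which is 12.7 and 11.8 CPM against 5.26, 2.18 and 2.53 CPM. All 3 Runx3 +/WRPW libraries were below both Runx3 +/+ libraries. Among the genes tested, 48.5% had genotypes that did not overlap, and 23.8% did so with the lower values in Runx3 +/WRPW. The group levels were 12.2 ± 0.640 CPM (SD, n = 2) and 3.32 ± 1.68 CPM (SD, n = 3), with a log2 difference of -1.84 ± 0.37 (SE; edgeR adjusted p = 0.028). In bulk RNA, fewer cells with the transcript and less transcript per cell cannot be told apart. The fall was 3.07-fold to 5.18-fold when each library was left out in turn, and 3.07-fold (adjusted p = 0.0484) without Runx3 +/WRPW library 2. The call was lost without Runx3 +/+ library 1 (adjusted p = 0.2) or 2 (adjusted p = 0.234), where a lone Runx3 +/+ library is assumed to vary like the other genotype, and without Runx3 +/WRPW library 3 (adjusted p = 0.0792). With the replicate number as a block the adjusted p was 0.0613, and over all alternatives it ran from 0.000277 to 0.234.

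Cd4, a coreceptor that double-positive cells carry, was also lower in all 3 Runx3 +/WRPW libraries (0.160, 0.374 and 0.046 CPM) than in both Runx3 +/+ libraries (0.467 and 5.36 CPM), without overlap. Its fitted difference was 15.7-fold and did not pass (edgeR adjusted p = 0.0743). The raw counts of Cd4 were 10 and 134 in Runx3 +/+ and 7, 6 and 1 in Runx3 +/WRPW. The part of residual CD4+ cells in the Dntt difference was not tested.

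The genes with profiles most like that of Dntt, by root mean square distance of centred log2 CPM over the 5 libraries among the 10981 genes whose mean log2 CPM reached 1, were Hmgn5 (0.173), Spc25 (0.315) and Cd79b (0.324). Hmgn5 encodes a nucleosome-binding protein, and it went from 28.0 ± 2.80 to 9.42 ± 4.78 CPM. Spc25, a subunit of the Ndc80 kinetochore complex, went from 9.40 ± 0.241 to 2.23 ± 0.374 CPM. Cd79b, a signalling chain of the B cell receptor, went from 7.56 ± 0.00817 to 1.93 ± 0.228 CPM. With 5 libraries these distances describe the profiles and test nothing.

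B cell precursors also use Dntt, and 7 of their 8 listed markers had a row. Their summed level was 10.1 to 10.6 CPM in Runx3 +/+ and 3.77 to 9.15 CPM in Runx3 +/WRPW, with the highest Runx3 +/WRPW value in library 2. Most of the sum in Runx3 +/+ was Cd79b. B cell precursors also use Rag1 and Rag2, whose counts are given above. The Rag level that would go with Dntt in such cells was not worked out. The part of B cells in the Dntt difference was not tested.

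Cd24a (chromosome 10, 43579169 to 43584265) encodes heat-stable antigen, whose loss from the surface is used to gate mature SP thymocytes. It was at 16.7 and 15.0 CPM in Runx3 +/+ and at 9.69, 9.96 and 12.4 CPM in Runx3 +/WRPW. All Runx3 +/WRPW libraries were below both Runx3 +/+ libraries, without overlap. The log2 difference was -0.57 ± 0.15 (SE), with an edgeR adjusted p = 0.055. It passed in DESeq2 (adjusted p = 0.0295), in limma-voom (adjusted p = 0.0389), with the stricter filter of 1 CPM (adjusted p = 0.0474) and without Runx3 +/WRPW library 3 (adjusted p = 0.0495). Over all alternatives the adjusted p ran from 0.0295 to 0.287. Without Runx3 +/WRPW library 2 the difference was 1.44-fold and did not pass (edgeR adjusted p = 0.121). Whether the sort used CD24 is unstated.

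Cd1d1 (chromosome 3, 86995834 to 87012358) encodes the molecule that presents lipids to natural killer T cell precursors, a task that double-positive thymocytes perform. It was at 30.6 and 31.7 CPM in Runx3 +/+ and at 29.5, 27.1 and 26.5 CPM in Runx3 +/WRPW. The genotypes did not overlap, yet the 1.12-fold difference did not pass (log2 -0.17 ± 0.09 SE, edgeR adjusted p = 0.252). Its close paralogue Cd1d2 had 20 and 34 counts in Runx3 +/+ and 67, 19 and 67 in Runx3 +/WRPW, and how reads shared by the pair were counted is unstated.

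Arpp21 (chromosome 9, 112065091 to 112236288), a cAMP-regulated phosphoprotein gene with an RNA-binding product, is transcribed in immature thymocytes and hosts a microRNA of the miR-128 family. It was at 3.50 and 2.60 CPM in Runx3 +/+ and at 0.846, 12.4 and 0.782 CPM in Runx3 +/WRPW. Library 2 was the highest of the 5, while the other Runx3 +/WRPW libraries were the lowest. With all libraries the log2 difference was 0.58 ± 1.23 (SE; edgeR adjusted p = 0.804). Without Runx3 +/WRPW library 2 it was -1.89 ± 0.32 (SE), a 3.72-fold fall that passed (adjusted p = 0.0266). In limma-voom with all libraries it was -1.08 (adjusted p = 0.5).

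The raw counts of Arpp21 were 75 and 65 in Runx3 +/+ and 37, 199 and 17 in Runx3 +/WRPW. The gene spans 171.2 kb, the longest of the 9. Genes of 100 to 300 kb with at most 3 counts in the other libraries had a median of 12 counts in library 2, and those over 300 kb had 24. The part that such counts have in the 199 was not tested. Exons of 2900079G21Rik, a long noncoding RNA on the opposite strand, overlap 580 bases of Arpp21 exons, and that gene had 0 to 5 counts per library. The row of Mir128-2 had 0 counts in all 5 libraries.

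**Figure D3:**
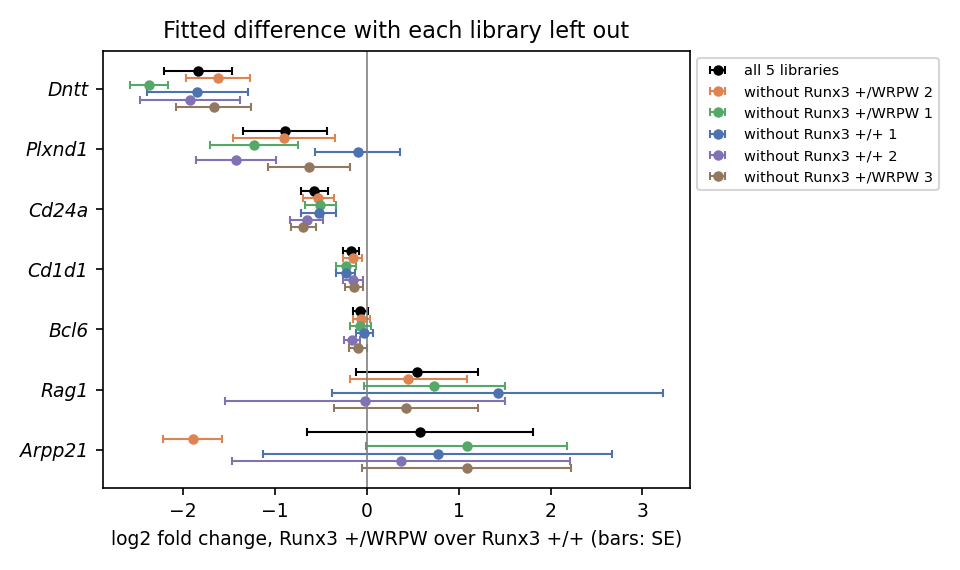
Fitted log2 fold change of Runx3 +/WRPW over Runx3 +/+ (x axis; bars, SE) for the 7 tested genes, with all 5 libraries (black) and with each library left out in turn (colours). Dntt stays between -2.37 and -1.62, Arpp21 moves from 0.58 to -1.89 without Runx3 +/WRPW library 2, and Plxnd1 moves from -0.89 to -0.10 without Runx3 +/+ library 1.

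Plxnd1 (chromosome 6, 115954811 to 115995339) encodes plexin D1, a semaphorin receptor that guides CD69+ thymocytes from cortex to medulla. It was at 87.2 and 34.1 CPM in Runx3 +/+ and at 44.9, 32.9 and 19.6 CPM in Runx3 +/WRPW. Runx3 +/+ library 1 was far above all others, and Runx3 +/+ library 2 lay within the range of Runx3 +/WRPW. Its 1.85-fold difference (log2 -0.89 ± 0.46 SE) fell short of the threshold in edgeR (adjusted p = 0.26). Leaving out Runx3 +/+ library 1 brought the log2 difference to -0.10, and leaving out Runx3 +/+ library 2 instead brought it to -1.42.

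Bcl6 (chromosome 16, 23965050 to 23988866) encodes a zinc finger repressor that is expressed in double-positive thymocytes and later in follicular helper T cells. It was at 36.2 and 32.5 CPM in Runx3 +/+ and at 32.3, 31.9 and 33.8 CPM in Runx3 +/WRPW. The genotypes overlapped, and the spread within Runx3 +/+ was wider than the difference between them. The log2 difference was -0.07 ± 0.08 (SE; edgeR adjusted p = 0.617), and it ran from -0.16 to -0.03 with each library left out in turn.

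Levels of different genes were compared per kb of exon, with the union of GENCODE exons as the length. In Runx3 +/+ the order was Cd1d1 at 12.1 CPM per kb, Plxnd1 at 8.31, Cd24a at 6.14, Dntt at 5.32, Bcl6 at 5.13, Arpp21 at 0.175, Rag1 at 0.0575, Rag2 at 0.0117 and Ptcra at 0. Ranges of neighbours overlapped between Cd1d1 and Plxnd1, Plxnd1 and Cd24a, Dntt and Bcl6, and Rag2 and Ptcra. In Runx3 +/WRPW Dntt stood at 1.45 CPM per kb, behind Bcl6 at 4.87, Plxnd1 at 4.45 and Cd24a at 4.14. Dntt and Bcl6 had overlapping levels per kb in Runx3 +/+, and in Runx3 +/WRPW every library had Bcl6 above Dntt, with Bcl6 at 4.76 to 5.05 and Dntt at 0.951 to 2.29 CPM per kb.

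The other genes of these pathways were taken from 8 lists of 139 genes in all, of which 117 passed the count filter, 19 were below it and 3 had no row. Of the 117, 21 were lower and 7 higher. Counts are from the same edgeR test, beside the 13.6% called over all genes. Up to 4 called genes per list are named by the smallest p-values.

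Of 18 genes tested that assist the recombinase or join or sense its breaks, 2 fell, 1 rose and 15 did not pass (16.7% called, median log2 difference 0.04). At an unadjusted p under 0.05, 3 were lower and 2 higher; DESeq2 called 2 and 2, and limma-voom 2 and 1. Hmgb2, a DNA-bending protein that assists RAG cleavage and is abundant in dividing cells, fell from 38.3 ± 3.95 to 11.7 ± 0.530 CPM (adjusted p = 0.000956). H2afx, the histone variant phosphorylated at breaks, fell from 49.0 ± 1.69 to 32.7 ± 2.64 CPM (adjusted p = 0.0112). Trp53bp1, which encodes the break-response protein 53BP1, rose 1.27-fold (adjusted p = 0.0207). The genes of Ku, DNA-PKcs, Artemis, ligase 4, XRCC4 and XLF did not pass. Polm, the polymerase nearest in kind to terminal transferase and singled out after its values were seen, was at 38.5 and 39.3 CPM in Runx3 +/+ and at 30.7, 34.5 and 28.1 CPM in Runx3 +/WRPW (adjusted p = 0.0873). Leaving out Runx3 +/WRPW library 2 gave 3 lower and 1 higher, and leaving out either Runx3 +/+ library gave 1 and 0.

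Factors known to bind or regulate the Rag, Ptcra and Dntt loci numbered 15 tested, of which 4 fell, 1 rose and 10 did not pass (33.3% called, median -0.18). DESeq2 called 8 lower and 1 higher, as many as had an unadjusted p under 0.05 in edgeR, and limma-voom called 4 and 1. Lef1, an HMG-box partner of Tcf7, fell 3.96-fold, Id3, an inhibitor of E proteins, 4.09-fold, Runx1 3.92-fold and Foxo1, an activator of Rag transcription, 1.59-fold. The gene that rose, outside the naming rule, was Id2, another E protein inhibitor, by 2.24-fold. The E protein genes Tcf3 and Tcf12 did not pass, at 226 ± 9.96 and 180 ± 7.84 CPM in Runx3 +/+ and at 197 ± 5.31 and 159 ± 5.31 CPM in Runx3 +/WRPW. The count was again 4 lower and 1 higher when Runx3 +/WRPW library 2 was omitted, 3 and 1 when Runx3 +/+ library 1 was, and 1 and 0 when Runx3 +/+ library 2 was.

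Of the 16 genes of the double-negative stage with a row, 8 were below the count filter. The 8 tested included 2 that fell, 0 that rose and 6 that did not pass (25% called, median 0.05). At an unadjusted p under 0.05, 3 were lower and 1 higher; DESeq2 called 2 and 1, and limma-voom 2 and 0. Notch1, the receptor that commits cells to the T lineage, was at 434 and 468 CPM in Runx3 +/+ and at 530, 415 and 494 CPM in Runx3 +/WRPW, and did not pass. Notch3, a Notch receptor of early thymocytes, fell from 23.5 ± 5.52 to 3.93 ± 1.62 CPM (adjusted p = 0.0062). Kit, the stem cell factor receptor, fell from 20.4 ± 3.70 to 8.56 ± 2.05 CPM (adjusted p = 0.0186). Bcl11a, a factor of early progenitors, was at no more than 0.138 CPM in 4 libraries and at 5.85 CPM in Runx3 +/WRPW library 2. Omitting that library gave 2 lower and 1 higher; omitting Runx3 +/+ library 1 or 2 gave 1 or 0 lower, and omitting Runx3 +/WRPW library 1 or 3 gave 1 or 3.

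Of the 15 double-positive stage genes tested, 3 fell, 0 rose and 12 did not pass (20% called, median -0.34). At an unadjusted p under 0.05, 7 were lower and 1 higher; DESeq2 called 6 lower and 1 higher, and limma-voom 4 and 1. The chemokine receptor gene Ccr9 fell 1.84-fold, the tetraspanin gene Cd81 1.34-fold and Cd69, which marks recently selected cells, 1.46-fold (adjusted p = 0.0495). With Runx3 +/WRPW library 2 omitted 2 were lower, Ccr9 among them, and the calls of Cd81 and Cd69 were lost. With Runx3 +/WRPW library 1 omitted 1 was lower, Cd69, and with Runx3 +/WRPW library 3 omitted 1 was lower, Ccr9. The calls of Ccr9, Cd81 and Cd69 were all lost when either Runx3 +/+ library was omitted, which leaves a lone Runx3 +/+ library. With the replicate number as a block, those of Cd81 and Cd69 were lost.

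Genes that rise with maturation went in either direction: of 20 tested, 6 fell, 3 rose and 11 did not pass (45% called, median -0.02). At an unadjusted p under 0.05, 8 were lower and 4 higher; DESeq2 called 7 and 4, and limma-voom 6 and 3. S1pr1, the receptor for exit from the thymus, fell 12.8-fold, Itgb7 3.61-fold and Cd52 1.65-fold, while Gimap3 rose 1.69-fold. The immature-stage gene Dntt and these 3 genes of late maturation were both lower in Runx3 +/WRPW. Omitting Runx3 +/WRPW library 2 gave 6 lower and 2 higher, omitting Runx3 +/+ library 1 gave 4 and 3, and omitting Runx3 +/+ library 2 gave 2 and 1.

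Around CD1d, of 12 genes of lipid presentation and innate-like T cells tested, 3 fell, 0 rose and 9 did not pass (25% called, median -0.02). With 4 lower and 1 higher at an unadjusted p under 0.05, DESeq2 and limma-voom each called 4 lower and 0 higher. Egr2, a factor of natural killer T cell precursors, fell from 69.8 ± 6.86 to 43.4 ± 5.94 CPM, Hivep3 1.52-fold and Slamf1, a signalling receptor for selection on CD1d, 1.45-fold. Zbtb16, which encodes PLZF, the defining factor of innate-like T cells, was at 0.0467 and 0.320 CPM in Runx3 +/+ and at 0.0914, 9.84 and 0.368 CPM in Runx3 +/WRPW, again with library 2 alone high. Omitting that library gave 3 lower, but the call of Hivep3 was lost, so the 3 were not the same genes. Omitting Runx3 +/WRPW library 1 gave 1 lower, and omitting Runx3 +/WRPW library 3 gave 0. The calls of Egr2, Hivep3 and Slamf1 were all lost when either Runx3 +/+ library was omitted, which leaves a lone Runx3 +/+ library. They were also lost with the replicate number as a block.

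Of 15 plexin, semaphorin and neuropilin genes tested, Plxnc1 fell 1.66-fold, 0 rose and 14 did not pass (6.67% called, median -0.22), with 4 lower and 2 higher at an unadjusted p under 0.05, 2 and 2 in DESeq2, and 1 and 0 in limma-voom. Sema3e, the ligand of plexin D1, had no count outside Runx3 +/WRPW library 2, where it was at 0.872 CPM. Of 14 genes around Bcl6, 2 rose, 0 fell and 12 did not pass (14.3% called, median 0.03), with 2 lower and 2 higher at an unadjusted p under 0.05, and 0 lower and 2 higher in DESeq2 and in limma-voom. The 2 were Cxcr5, the follicle-homing receptor of Bcl6-dependent helper T cells, which rose from 0.967 ± 0.0461 to 19.7 ± 8.10 CPM (adjusted p = 0.00348), and Hdac5, which rose 1.43-fold. The corepressor genes Bcor and Ncor1 and the antagonist Prdm1 did not pass. With Runx3 +/WRPW library 2 omitted, 2 genes fell in the plexin list and 2 rose in the Bcl6 list; with Runx3 +/+ library 2 omitted 0 fell in the former, and with either Runx3 +/+ library omitted 0 rose in the latter.

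**Figure D4:**
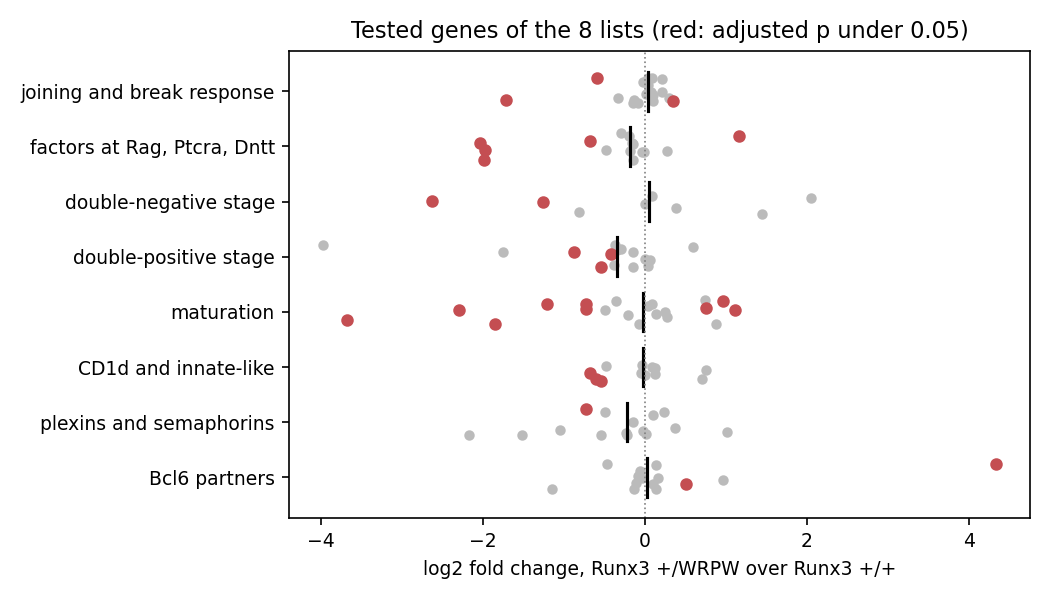
Log2 fold change of Runx3 +/WRPW over Runx3 +/+ (x axis) for the tested genes of the 8 lists; each point is 1 gene, red points have an edgeR adjusted p under 0.05, black bars are list medians and vertical scatter is for legibility. Medians lie between -0.34 and 0.05, and called genes lie on both sides of 0 in 3 lists.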

How the data were processed

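Bulk RNA-seq of sorted mature CD8 SP thymocytes gave 1 deposited file per sample with raw read counts per gene symbol, which the authors did not normalize. The tools listed per the submitters' processing notes are HISAT2 2.2.1, edgeR 3.36.0, cutadapt 4.0 and featureCounts 2.0.8, with build mm10; annotation, strand and multi-mapping settings were not given in the sources used here. No row lacked a gene name. Here R 4.3.3 and edgeR 4.0.16 compared the genotypes by glmQLFit and glmQLFTest, after filterByExpr (min.count 10) and TMM scaling (0.981 to 1.034); a gene was called below 0.05 after Benjamini-Hochberg adjustment over 13666 genes. The SE is the absolute log2 fold change over the square root of F. The pipeline was run on counts simulated from pooled means with the same dispersion for all genes. Such counts lack the gene-by-gene spread and the library 2 pattern of these data, so the run checks the code alone. Positions and promoters are from RefSeq GRCm38.p6, the assembly of mm10, and exon lengths and overlaps from GENCODE M21. No library pair agreed within sampling noise (chi-square per gene of at least 10.9). Other settings tried were DESeq2 1.42.0, limma-voom (limma 3.58.1), upper-quartile or RLE factors, no filter, 1 CPM in all libraries of a genotype, robust dispersions, a replicate block and each library left out. The members and lists were chosen with earlier results of these data known. Named genes are the 9 members, up to 4 called genes per list with the smallest p-values, and the 3 genes nearest in profile to each called member; others are values given for context or said to be chosen after their values were seen. Column headers number Runx3 +/+ library 2 as 3 and give Runx3 +/WRPW library 2 an aligner's name; sample records were followed. Some genes of the lists are not reported here by name. Intervals and floors cover counting error only.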

Additional observations from a re-analysis of the deposited data

How the results depend on the processing

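With 2 and 3 libraries the test has little room: leaving out 1 library in turn gave 106 to 585 genes higher (853 with all), 171 to 846 lower (1002 with all), 0 to 2 of the 9 genes lower and 5 to 29 of the list genes called (28 with all). Without Runx3 +/+ library 1, 0 of the 9 were lower, the same number as with Runx3 +/+ library 2 left out, and leaving out Runx3 +/WRPW library 2 gave 2, Dntt and Arpp21. With no low-count filter, 442 genes were higher and 637 lower among 28583 tested. DESeq2 called 2 of the 9 lower and 44 list genes, and limma-voom and the filter of 1 CPM also called 2 of the 9 lower. None of the 9 was called higher in edgeR under any alternative, nor in DESeq2 or limma-voom. Dntt kept its direction in all alternatives, and its call was lost in 4 of them: 3 of the fits without 1 library and the replicate block. Signs turned for Rag1 (log2 0.55 with all, -0.0149 to 1.42 with 1 library left out) and Arpp21 (0.58 with all, -1.08 in limma-voom, -1.89 to 1.09 with 1 library left out). The cause was not tested. With the replicate number as a block, 327 genes were higher, 427 lower and 0 of the 9 lower. Deviations of same-numbered libraries correlated at -0.05 and 0.0024 over 2 pairs. With 2 Runx3 +/+ libraries their deviations mirror each other, and other pairings were not examined. These values therefore cannot decide whether libraries share a batch. Depth limits Rag2 and Ptcra, with at most 2 counts in any library.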
